A study of Mus musculus with 16 samples.

Results

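The TAM receptors Tyro3, Axl and Mertk and their ligands Gas6 and Pros1 were measured by the probe sets whose annotated symbol is 1 of these names, which gave 5 genes of the 19752 on the array, each with 1 probe set. The group was chosen by the known roles of its genes and by the intensity of Axl in the macrophages of both genotypes, where earlier results of these data had shown it apart, so those Axl values are a description, with no test. The study measured gene expression in mouse immune cells on 16 Affymetrix Mouse Gene 1.0 ST arrays, 8 groups of 2, and its title asks how interferon-stimulated genes depend on the interferon receptor chain Ifnar1 and on the kinase Tyk2. All mice were male. Cells were sorted on a FACSAria into TriZol, and RNA was amplified with the Ambion WT Expression Kit.

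The first 2 groups were peritoneal macrophages, sorted as F4/80+ ICAM2+, of 6-week-old B6.129S2-Ifnar1tm1Agt/Mmjax mice (KO below), which lack a working Ifnar1. One was taken 2 h after 10000 units of IFNα given under the skin, and the other is titled without IFNα. The preparation text of those untreated-titled arrays states the same injection. The title was followed here, and if that text is right both KO groups were treated. The other 6 groups were of B10.Q/J background at 7 weeks of age, which carries a natural mutation of Tyk2. They were macrophages of the same gate and spleen T cells sorted as TCRB+ CD4+ CD8-, each 2 h and 5 h after 10000 units of IFNα or after vehicle. Vehicle was given for 2 h before 1 array of each vehicle pair and for 5 h before the other. Of the 6 B10.Q macrophage titles, 5 carry a spleen code although the source is given as the peritoneal cavity, and 1 T-cell vehicle array has a B-cell code in its title. No array from mice with both Ifnar1 and Tyk2 intact was analysed here. Ifnar1 genotype, strain, Tyk2 allele and age differ together between KO and B10.Q and cannot be told apart. The KO and B10.Q arrays also carry sample numbers from separate runs. Any difference in how they were processed cannot be told apart from these either. The labels do not state whether both arrays in a group were hybridised from different mice, and p-values then measure a spread that may be technical.

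Tyro3, Axl and Mertk are receptor tyrosine kinases that bind no dying cell directly. Gas6 and protein S, the product of Pros1, bridge them to phosphatidylserine on the surface of apoptotic cells, and both ligands need carboxylation in the vitamin K cycle to do so. Mertk and Axl are known from macrophages, where they serve the uptake of dying cells and damp cytokine production, in part together with the type I interferon receptor through Socs1 and Socs3.

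The 250 bases before the annotated start are printed for Axl, which had the widest range of the 5 over the macrophage arrays, and for the ligands Gas6 and Pros1, whose KO and B10.Q arrays did not overlap. They are RefSeq sequences of GRCm38.p6, the C57BL/6J reference and not the alleles of these mice, and all 5 genes had an entry. Capitals mark matches to a motif on either strand: the GC box GGGCGG, written CCGCCC on the opposite strand, and, in Pros1 alone, the letters of a gamma-activated site.
Axl, chr7:25788734-25788983, minus strand: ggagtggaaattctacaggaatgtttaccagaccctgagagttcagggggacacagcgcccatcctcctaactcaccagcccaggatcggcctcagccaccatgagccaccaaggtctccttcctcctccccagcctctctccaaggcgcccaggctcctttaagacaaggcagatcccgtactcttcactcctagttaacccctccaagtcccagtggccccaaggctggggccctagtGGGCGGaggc
Gas6, chr8:13494536-13494785, minus strand: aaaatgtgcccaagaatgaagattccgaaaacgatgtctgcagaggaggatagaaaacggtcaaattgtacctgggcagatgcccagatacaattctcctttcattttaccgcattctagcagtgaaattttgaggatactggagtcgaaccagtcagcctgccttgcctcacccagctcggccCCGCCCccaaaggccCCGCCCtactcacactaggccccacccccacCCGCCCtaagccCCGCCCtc
Pros1, chr16:62854057-62854306, plus strand: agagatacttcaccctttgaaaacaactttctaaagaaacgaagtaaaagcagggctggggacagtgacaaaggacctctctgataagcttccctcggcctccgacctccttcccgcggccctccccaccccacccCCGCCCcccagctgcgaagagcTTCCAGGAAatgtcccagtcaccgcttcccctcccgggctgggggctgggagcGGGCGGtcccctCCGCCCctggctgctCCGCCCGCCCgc
Neither strand of the 5 windows held the interferon-stimulated response element GAAANNGAAA, which 2.977% of 32851 promoter windows of the same length hold. The gamma-activated site TTCNNNGAA lay in the Pros1 window only, as TTCCAGGAA 92 to 84 bases before the start, and is found in 7.02% of all windows. The AP-1 site TGACTCA (4.463% of windows) and the DR4 element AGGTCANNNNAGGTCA, the spacing LXR receptors bind (0.015%), had no match in the 5 windows. GC boxes, which 32.742% of windows hold, numbered 1 in Axl, 3 in Mertk, 3 in Tyro3, 4 in Gas6 and 5 in Pros1, where 2 overlap. A match is a run of letters and not a bound site.

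Levels below are log2 of the deposited intensity, and differences are log2 differences with limma's standard error (SE, n = 2 arrays per group). A level is compared only with the same gene in other arrays. Array medians lay between 7.44 and 7.60. A gene was tested if it exceeded the median intensity of the array on 2 or more arrays in the fit, and was called where its Benjamini-Hochberg adjusted p over all genes tested was under 0.05.

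The labelled cell types were borne out by markers. The 7 CD4 T-cell markers measured averaged 6.61 to 6.94 in the 10 macrophage arrays and 11.81 to 12.02 in the 6 T-cell arrays. The 12 peritoneal macrophage markers averaged 11.93 in KO IFNα array 1 and 12.28 to 12.53 in the 9 other macrophage arrays. The 7 B-cell markers averaged 7.45 in that array, 7.22 in the KO array numbered 1 that had no IFNα, and 6.58 to 6.76 in the remaining macrophage arrays. Among T-cell arrays the macrophage markers averaged 8.92 and 7.76 in the IFNα 2 h pair, against 7.22 to 7.30 in the other 4. Their summed intensity was 10607 and 3369 in that pair, against 2215 to 2403, with 10 and 5 of 12 above the array median, against 3. Fn1, a macrophage marker here, read 11.93 and 9.43 in the pair and at most 7.46 in the other 4. The Ifnar1 probe set did not separate the genotypes, with 9.93 to 10.31 in KO and 10.09 to 10.46 in B10.Q macrophages, and so does not check the deletion.

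**Figure D1:**
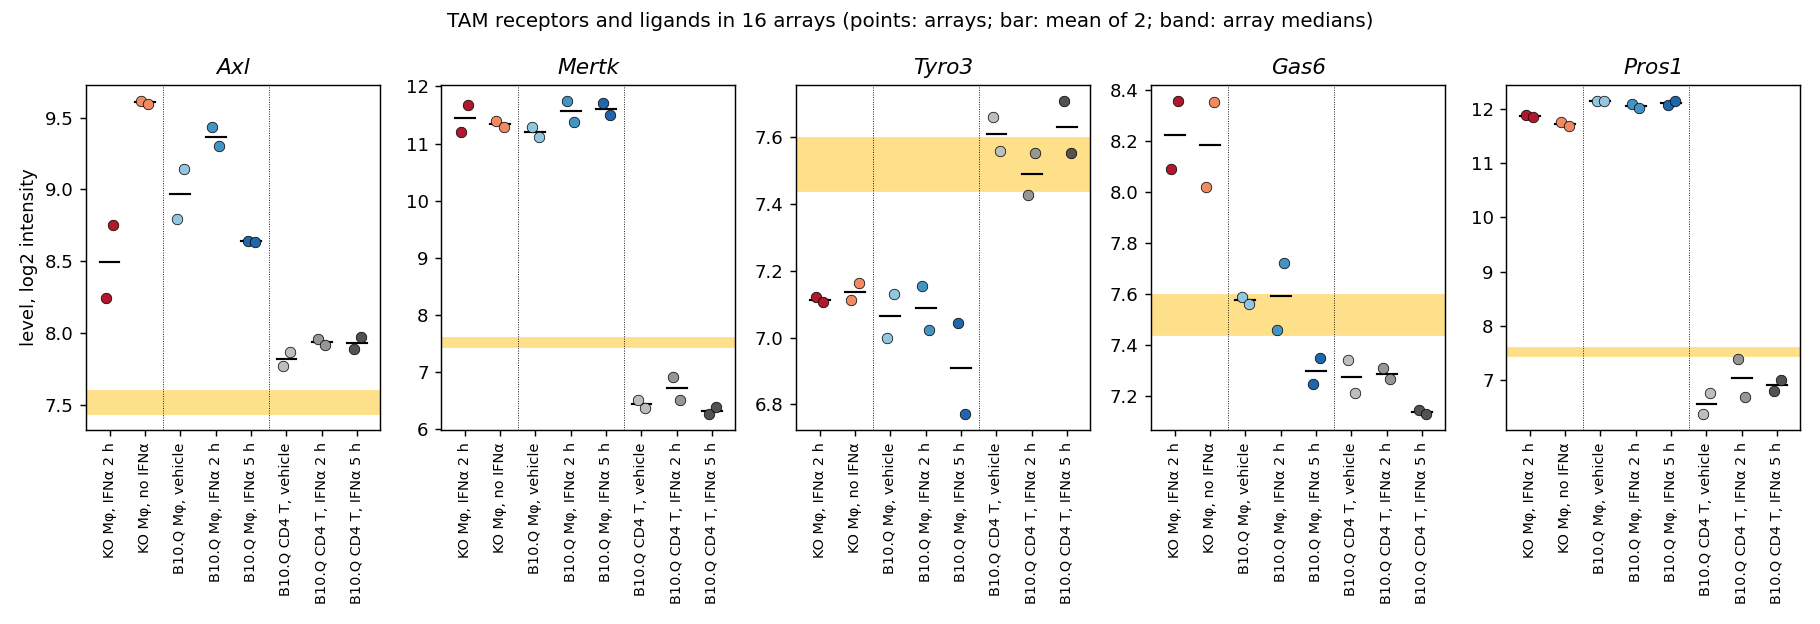
Log2 intensity of the 5 genes in each of the 16 arrays, 1 panel per gene with its own y axis; points are arrays, the bar is the mean of 2 and the yellow band spans the array medians (7.44 to 7.60). Axl was highest in the KO arrays without IFNα (9.62 and 9.59), Mertk and Pros1 separated macrophages from T cells, and Gas6 was above 8 in the 4 KO arrays alone.

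Axl, the TAM receptor best known as inducible in inflamed tissue, varied most between conditions in macrophages. It read 8.25 and 8.75 in KO macrophages after IFNα and 9.62 and 9.59 in KO macrophages without it. In B10.Q macrophages it read 8.79 and 9.14 after vehicle, 9.43 and 9.30 at 2 h and 8.64 and 8.64 at 5 h. The KO arrays without IFNα were thus the highest of the 10 macrophage arrays, KO IFNα array 1 was the lowest, and KO IFNα array 2 lay between the 5 h pair and the lower vehicle array. In T cells Axl stayed between 7.77 and 7.97 in all 6 arrays, below every macrophage array.

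Ordered by mean, Axl ran from KO without IFNα (9.61) through B10.Q at 2 h (9.37), B10.Q vehicle (8.97), B10.Q at 5 h (8.64) and KO with IFNα (8.50) to the 3 T-cell groups (7.94 at 2 h, 7.93 at 5 h and 7.82 after vehicle). The arrays of neighbours in this order overlapped between B10.Q at 5 h and KO with IFNα, and between T cells at 2 h and at 5 h. With 2 arrays a group, arrays that do not overlap are a weak separation.

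Within the KO macrophages Axl was 1.11 lower on the log2 scale after IFNα (-1.11, 0.46-fold). This reading is part of the comparison on which Axl was picked, and no support is drawn from it. The value was -0.86 without KO IFNα array 1, which had the lowest macrophage and the highest B-cell marker mean, and -1.36 without array 2. KO minus B10.Q was 0.64 (1.56-fold) for KO without IFNα against B10.Q vehicle and -0.87 (0.55-fold) for KO with IFNα against B10.Q at 2 h, so the sign depended on which pair was set side by side. Over all arrays, the 4 KO and the 6 B10.Q values had means of 9.05 and 8.99 and overlapped. The difference of the 2 h responses, KO minus B10.Q, was -1.51. The limma fit placed it among the 43 of 10531 genes called there, a background of 0.408%, from which nothing is read for Axl.

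The B10.Q macrophage arrays also entered the choice of Axl, so its differences among them are a description. At 2 h Axl was 0.40 ± 0.17 above vehicle (SE, 1.32-fold), with no overlap of the arrays. At 5 h it was at -0.33 ± 0.17 against vehicle (0.80-fold), again with no overlap. The 5 h arrays were below the 2 h arrays (-0.73 ± 0.17, 0.60-fold).

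The mean of markers of small peritoneal macrophages and monocytes moved with Axl in part, but not from vehicle to 2 h in B10.Q macrophages. The mean of the 7 measured was 8.10 and 8.17 in KO with IFNα and 8.42 and 8.37 in KO without it. In B10.Q macrophages it was 7.96 and 8.20 after vehicle, 7.89 and 8.15 at 2 h and 7.61 and 7.78 at 5 h. Their summed intensity was 4712 to 5128 in KO with IFNα, 4994 to 5464 in KO without it, and in B10.Q 4669 to 5535 after vehicle, 4705 to 5430 at 2 h and 3428 to 4077 at 5 h. Of the 7, those above the array median numbered 4 in KO with IFNα, 5 in KO without it, and in B10.Q 4 after vehicle, 3 to 4 at 2 h and 2 to 4 at 5 h. The part of these cells in the Axl values was not tested, and fewer cells of a type cannot be told from less RNA per cell in such bulk samples.

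Mertk, the receptor through which resident macrophages engulf dying cells, was high in every macrophage array and below the array median in every T-cell array. It read 11.21 and 11.67 in KO macrophages with IFNα and 11.39 and 11.29 without it. In B10.Q macrophages it read 11.29 and 11.12 after vehicle, 11.75 and 11.38 at 2 h and 11.71 and 11.51 at 5 h, and in T cells 6.52 and 6.38 after vehicle, 6.92 and 6.52 at 2 h and 6.27 and 6.38 at 5 h. All 4 treated B10.Q macrophage arrays lay above both vehicle arrays. The difference was 0.36 ± 0.18 at 2 h (1.28-fold, limma adjusted p = 0.984) and 0.40 ± 0.18 at 5 h (1.32-fold, limma adjusted p = 1.00). Neither passed, and the KO difference was 0.10 ± 0.18 with overlapping arrays. The 5 macrophage groups overlapped with each neighbour in the order of means, and so did the 3 T-cell groups.

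Tyro3, the family member best known from neurons, was low throughout. It read 7.12 and 7.11 in KO macrophages with IFNα and 7.11 and 7.16 without it. In B10.Q macrophages it read 7.00 and 7.13 after vehicle, 7.15 and 7.02 at 2 h and 7.04 and 6.77 at 5 h. All 10 macrophage arrays were below their own median, so Tyro3 did not enter the macrophage tests. In T cells it lay near the array median, with 7.66 and 7.56 after vehicle, 7.43 and 7.55 at 2 h and 7.71 and 7.55 at 5 h. The T-cell differences against vehicle were -0.12 ± 0.10 at 2 h and 0.02 ± 0.10 at 5 h, neither called.

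Gas6, the ligand that binds all 3 receptors, separated KO from B10.Q macrophages. It read 8.09 and 8.36 in KO with IFNα and 8.02 and 8.35 in KO without it. In B10.Q macrophages it read 7.59 and 7.56 after vehicle, 7.46 and 7.72 at 2 h and 7.25 and 7.35 at 5 h. All 4 KO arrays lay above all 6 B10.Q arrays. KO minus B10.Q was 0.61 (1.53-fold) without IFNα against vehicle and 0.63 (1.55-fold) at 2 h of IFNα. Gas6 in B10.Q macrophages was near the array median and in T cells below it, at 7.34 and 7.21 after vehicle, 7.31 and 7.27 at 2 h and 7.15 and 7.13 at 5 h.

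Pros1, which encodes the anticoagulant protein S and is a ligand of Tyro3 and Mertk, separated the genotypes the other way. It read 11.89 and 11.85 in KO macrophages with IFNα and 11.76 and 11.69 without it. In B10.Q macrophages it read 12.15 and 12.16 after vehicle, 12.09 and 12.02 at 2 h and 12.07 and 12.15 at 5 h. All 4 KO arrays lay below all 6 B10.Q arrays. KO minus B10.Q was -0.43 (0.74-fold) without IFNα against vehicle and -0.19 (0.88-fold) at 2 h of IFNα. Pros1 and Ifnar1 both lie on mouse chromosome 16, and the strain origin of Pros1 in the KO mice was not tested.

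Gas6 and Pros1 were thus the 2 of 5 genes with no overlap between KO and B10.Q macrophages, and Axl, Mertk and Tyro3 overlapped. Of the 10531 genes tested in macrophages, 1113 (10.6%) had 4 KO arrays all above or all below the 6 B10.Q arrays. Because the genes were chosen with KO against B10.Q in view, nothing is read from the count. Neutrophil markers separated the same arrays as a list mean and a sum, but none of the 8 did so alone. Mmp9, the highest of them, read 8.68 to 9.34 in KO and 8.01 to 8.83 in B10.Q. Ngp read 8.22 in KO array 1 without IFNα and at most 5.63 in the other macrophage arrays. The mean of 8 was 6.30 to 7.08 in the 4 KO arrays and 6.03 to 6.23 in the 6 B10.Q arrays, their summed intensity 1014 to 1472 in KO and 724 to 937 in B10.Q, and 1 to 2 of them in KO and 1 in B10.Q lay above the array median. Single markers of other lists did separate the same arrays. Among them, Fcrls of the small macrophage and monocyte list read 7.15 to 7.78 in KO and 6.49 to 6.94 in B10.Q. Cd226 of that list, under the array median, read 6.04 to 6.26 and 5.80 to 5.94. Itgam of the peritoneal macrophage list ran the other way, with 12.26 to 12.83 in KO and 12.92 to 13.06 in B10.Q. The part of any of these cell types in the Gas6 and Pros1 values was not tested.

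IFNα moved neither ligand past the test in B10.Q macrophages. Gas6 was at 0.02 ± 0.15 at 2 h and -0.28 ± 0.15 at 5 h against vehicle, and Pros1 at -0.10 ± 0.10 and -0.04 ± 0.10. In KO macrophages Gas6 was at 0.04 ± 0.15 and Pros1 at 0.14 ± 0.10. The 95% interval of the 2 h difference in B10.Q ran from -0.32 to 0.36 for Gas6 and from -0.33 to 0.13 for Pros1, so shifts of that size cannot be told from none.

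**Figure D2:**
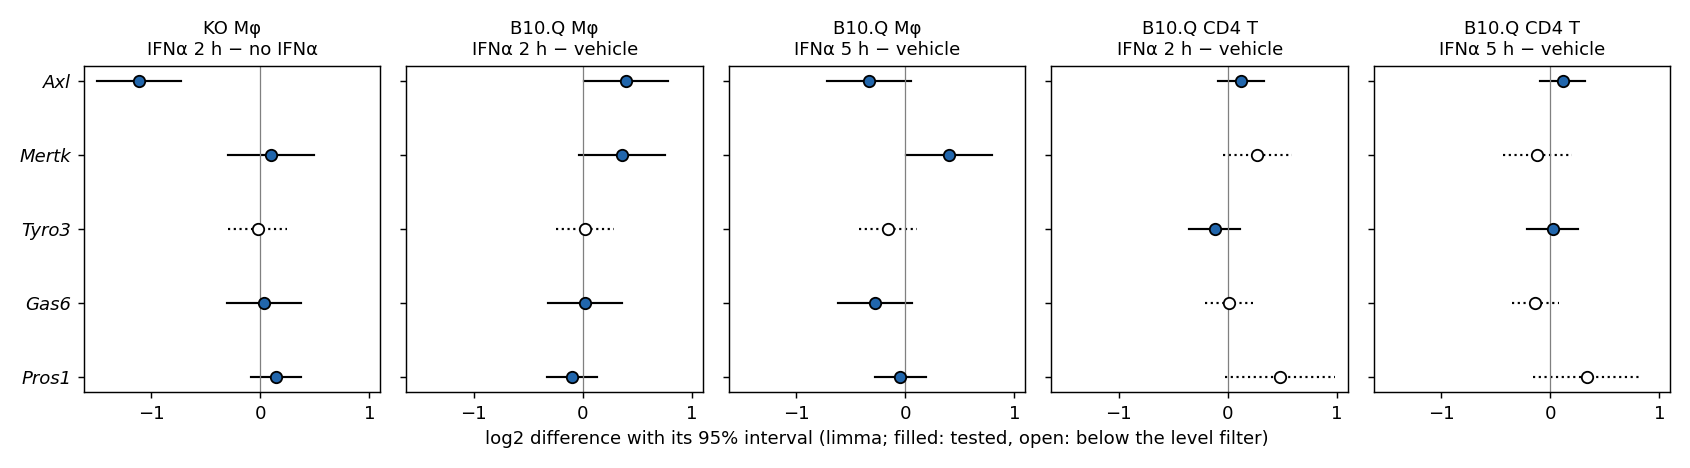
Log2 difference and 95% interval of each gene (rows) in 5 IFNα comparisons (panels: KO macrophages, B10.Q macrophages at 2 h and 5 h, B10.Q CD4 T cells at 2 h and 5 h), from limma; filled points were tested, open points with dotted lines were below the level filter. Axl in KO macrophages (-1.11), shown as a description, lay farthest from 0, and none of the tested differences passed the test.

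Counted together, 0 of the 4 genes tested in B10.Q macrophages were called at 2 h, where limma called 84 of 10531 genes (0.798%), among them the antiviral GTPase gene Mx1 at 5.22 ± 0.26. At 5 h 0 of 4 were called, against 88 genes (0.836%), and between 5 h and 2 h 0 of 4, against 1 gene (0.0095%). At an unadjusted p under 0.05 limma had 476, 414 and 529 genes in these 3 comparisons, with Axl among them at 2 h and between 5 h and 2 h, from which nothing is read, and Mertk at 5 h. In KO macrophages limma called 0 of 10531 genes (0%), with 460 at an unadjusted p under 0.05, Axl among them. No other tool was run.

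**Figure D3:**
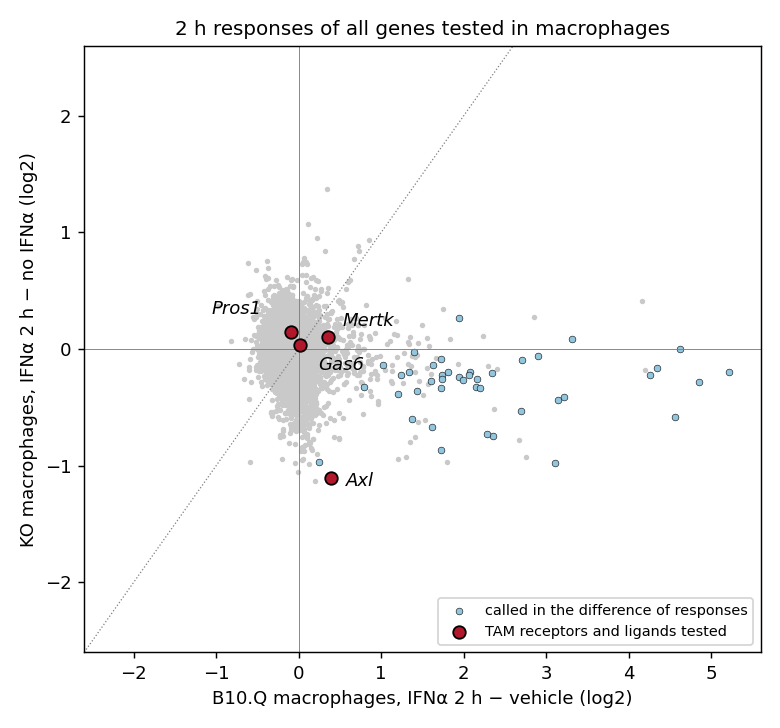
Log2 response at 2 h of IFNα in KO macrophages (y, against no IFNα) and B10.Q macrophages (x, against vehicle) for the 10531 genes tested; the dotted line marks equal responses, blue points are genes called in the difference of responses and red points the 4 TAM genes tested. Mertk, Gas6 and Pros1 lay in the cloud near 0, and Axl lay at 0.40 on x and -1.11 on y.

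In CD4 T cells Axl and Tyro3 were tested, and Mertk, Gas6 and Pros1 fell below the level filter. Axl was at 0.12 ± 0.09 at 2 h (limma adjusted p = 0.766) and 0.11 ± 0.09 at 5 h. Neither gene was called at 2 h, where 29 of 10112 genes were (0.287%), at 5 h, where 2 were (0.0198%), or between 5 h and 2 h, where 1 was (0.00989%). Neither had an unadjusted p under 0.05 in limma at these 3 comparisons, where 614, 387 and 996 genes did. Pros1 and Mertk were highest, at 7.40 and 6.92, in T-cell IFNα array 1 at 2 h, the array with the most macrophage marker signal. In array 2 of the same pair Pros1 was 6.68, inside the vehicle range of 6.38 to 6.75, and Mertk was 6.52, level with the higher vehicle array. Pros1 did not follow the marker signal at 5 h. It read 6.80 and 7.01 there, above both vehicle arrays, at macrophage marker means of 7.30 and 7.22, against 7.28 and 7.29 after vehicle. The part of macrophage RNA in these Pros1 and Mertk readings was not tested.

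**Figure D4:**
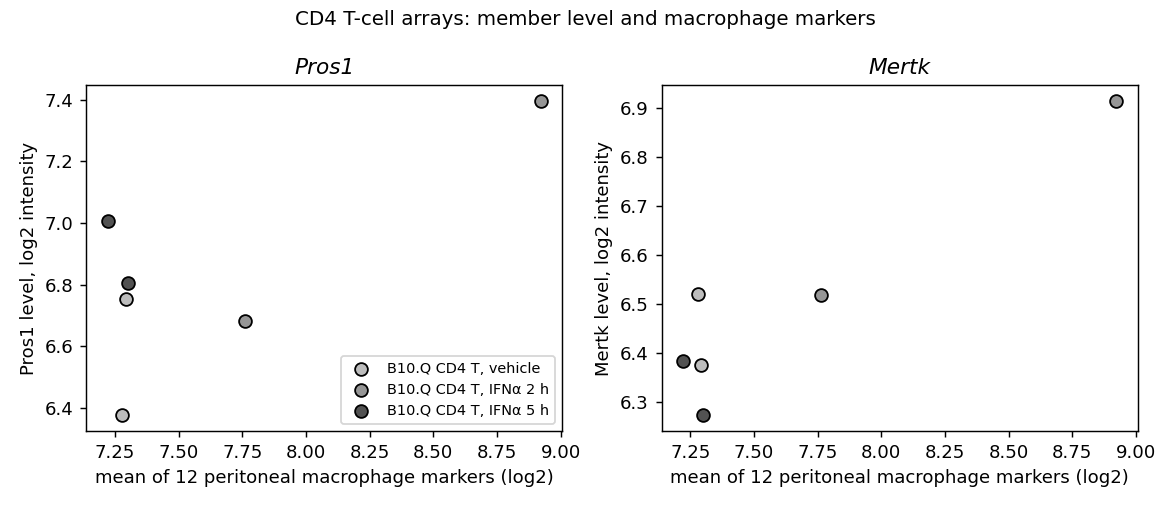
Pros1 (left) and Mertk (right) log2 intensity in the 6 B10.Q CD4 T-cell arrays, against the mean log2 level of 12 peritoneal macrophage markers in the same array; shades mark vehicle, IFNα 2 h and IFNα 5 h. The array with the highest marker mean (8.92) also had the highest Pros1 (7.40) and Mertk (6.92). The IFNα 5 h arrays had Pros1 of 6.80 and 7.01 at marker means of 7.30 and 7.22.

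Macrophages were set against CD4 T cells in the vehicle arrays of B10.Q mice, where all 5 genes were called and 62.1% of 11161 genes were, so the call itself says little and the sizes are given. Pros1 was 5.59 ± 0.19 higher in macrophages (48.1-fold, limma adjusted p = 7.95e-11) and Mertk 4.76 ± 0.15 higher (27.1-fold, limma adjusted p = 5.21e-11). In T cells both lay under the array median, where a probe set may read background alone, so these folds may understate the difference. Axl was 1.15 ± 0.11 higher (2.22-fold). The B10.Q macrophage arrays entered the choice of Axl, so this value is a description and no support is drawn from its call. Tyro3 ran the other way, with macrophages at -0.54 ± 0.11 (0.69-fold, limma adjusted p = 0.0012). Gas6 was 0.30 ± 0.10 higher (1.23-fold, limma adjusted p = 0.0229). The Gas6 call was lost after quantile normalization (0.24, limma adjusted p = 0.0794), after shifting arrays to 1 median (0.25, adjusted p = 0.0730), and without either macrophage vehicle array or T-cell vehicle array 2. The organ, peritoneum or spleen, goes with the cell type and cannot be told apart from it.

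The IFNα responses were also set against each other, macrophages minus T cells. Of the 5 genes 0 were called at 2 h, where limma called 3 of 11161 genes (0.0269%), and 0 at 5 h, where it called 28 (0.251%). At an unadjusted p under 0.05 stood none of the 5 at 2 h, where 815 genes did, and Axl (-0.44 ± 0.16) and Mertk (0.52 ± 0.22) at 5 h, where 556 did. The Axl value shares the B10.Q macrophage arrays of its choice and is a description. Pros1 at 2 h was -0.57 ± 0.27 (limma adjusted p = 0.694), and it was -0.93 (adjusted p = 0.0166) without T-cell IFNα array 2, which leaves array 1 with its macrophage markers, and -0.22 without array 1.

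Other genes of the pathway, 67 measured in 6 lists, were read in the same fits. None of the 58 tested in macrophages was called in the 3 B10.Q comparisons, in KO macrophages or in the difference of responses, and none of the 47 tested in T cells was called. At an unadjusted p under 0.05 limma had 2 at 2 h, 3 at 5 h, 4 between 5 h and 2 h and 1 in KO macrophages, and 5, 3 and 6 in T cells. Of all genes tested, 476, 414, 529 and 460 stood there in the 4 macrophage comparisons and 614, 387 and 996 in T cells. The list medians were between -0.09 and -0.01 at 2 h in B10.Q macrophages, where the median of all genes was -0.06.

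Among feedback genes of TAM signalling, Socs1, which blocks cytokine receptor kinases, read 8.53 and 7.91 in B10.Q macrophages at 2 h against 7.71 and 7.61 after vehicle (0.56 ± 0.20, limma adjusted p = 0.764). The 2 h pair lay above the vehicle pair, with a gap between its own arrays. Socs3 was at 0.38 ± 0.15 at 5 h (limma adjusted p = 0.94), and Cblb, a ubiquitin ligase that restrains the receptors, at 0.47 ± 0.18 at 5 h and 0.52 ± 0.18 in KO macrophages. Cd47, the do-not-eat-me signal, read 12.17 and 11.83 at 2 h and 12.08 and 12.05 at 5 h, against 11.66 and 11.58 after vehicle. All 4 treated arrays were higher, by 0.38 ± 0.14 and 0.45 ± 0.14, and neither passed (limma adjusted p = 0.816 and 0.466). Its receptor on macrophages, Sirpa, was at -0.31 ± 0.19 in KO macrophages.

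Of the bridging and phosphatidylserine receptors, Cd300lb was at -0.60 ± 0.37 at 2 h and Stab1 at -0.36 ± 0.42 at 5 h in B10.Q macrophages. Of the engulfment genes, Abca1, a lipid exporter, was at 0.20 ± 0.14 at 2 h and -0.18 ± 0.14 at 5 h. Rxra, a partner of LXR and PPAR receptors, was at -0.29 ± 0.24 at 2 h and Pparg at -0.27 ± 0.16 at 5 h. Between 5 h and 2 h the integrin gene Itgb3 was at 0.50 ± 0.15, Abca1 at -0.39 ± 0.14 and Pparg at -0.43 ± 0.16 (each limma adjusted p = 0.904). In the vitamin K and shedding list Adam17, which sheds Mertk and Axl from the cell surface, was at -0.10 ± 0.15 at 2 h and -0.19 ± 0.15 at 5 h, and the protease gene Furin at 0.19 ± 0.15 at 5 h.

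In T cells at 2 h the bridging genes Thbs1 (1.90 ± 0.56, limma adjusted p = 0.701) and C1qb (1.33 ± 0.40, limma adjusted p = 0.705) had the largest differences of the lists. Thbs1 read 10.12 and 8.02 at 2 h against 7.03 and 7.32 after vehicle, and C1qb read 10.33 and 8.89 against 8.48 and 8.07. Both were highest in array 1, as were the macrophage markers. The part of macrophage RNA here was not tested.

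Between macrophages and T cells after vehicle, 36 of the 57 list genes tested were higher and 11 lower in macrophages. Of all 11161 genes tested, 3131 were higher and 3805 lower (62.1% called), which is the background for each list below. The bridging and phosphatidylserine receptors had 12 higher and 2 lower of 15, with a median of 3.87, where the median of all genes was -0.07. This list shares Timd4 and C1qa with the peritoneal macrophage markers. Its higher genes included the scavenger receptor Cd36 (7.12 ± 0.27), Thbs1 (6.45 ± 0.44) and the complement genes C1qc (6.07 ± 0.26) and C1qa (5.37 ± 0.20). The T-cell means of these 4 (5.12, 7.17, 6.85 and 7.26) lay under the array medians, so their sizes may be understated and give no order. Of the engulfment genes 8 were higher and 2 lower of 11, among them Dock1, a Rac activator (4.12 ± 0.14), and Abca1 (2.98 ± 0.12). Dock1 read 5.87 and 5.66 in the T-cell vehicle arrays, under the array medians, so its size may be understated as well. In the vitamin K and shedding list 6 of 7 were higher, with Vkorc1, which recycles vitamin K, at 2.24 ± 0.13, Calu at 1.42 ± 0.10 and the sheddases Adam10 and Adam17 at 0.81 ± 0.10 and 0.77 ± 0.14.

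Of the genes for phosphatidylserine exposure and do-not-eat-me signals 6 were higher and 1 lower of 8, Sirpa at 4.13 ± 0.17 and Cd47 at -0.58 ± 0.11. Of the nuclear receptors 2 were higher and 1 lower of 5, Rxra at 2.21 ± 0.12 and Rxrb at -0.53 ± 0.10. In the signalling list 2 were higher and 5 lower of 11, with Plcg2 at 4.23 ± 0.10 and its paralogue Plcg1 at -2.68 ± 0.10, and Socs1 at -1.55 ± 0.18. Plcg2 read 6.62 and 6.42 in the T-cell vehicle arrays, under the array medians, so its size may be understated.

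The genes whose level was most like each member were named by Pearson's r over the 10 macrophage arrays, as a description. Axl was nearest to the histone gene H2bc3 (r = 0.90), Enkd1 (0.90) and Bard1 (0.89), the partner of Brca1, and most opposed to Abhd6 (-0.91) and 1810013L24Rik (-0.91). Within the 6 B10.Q arrays the r with H2bc3 was 0.80. Mertk was nearest to Gm4951 (0.88), Adamtsl4 (0.86) and the immunophilin Fkbp5 (0.84), and most opposed to Alas1 (-0.94), the first enzyme of haem synthesis, and Zfp710 (-0.87). Fkbp5 kept r = 0.93 when the 2 arrays farthest from the Mertk median were left out.

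For the ligands the KO and B10.Q arrays formed separate groups, so r is also given within B10.Q. Gas6 was nearest to Ramp3 (0.97), Fkbp1a (0.96) and Gmds (0.96), and most opposed to the malic enzyme gene Me1 (-0.99) and the versican gene Vcan (-0.97). Me1 had means of 6.91 and 7.03 in the KO groups and 8.05 to 8.71 in the B10.Q groups, and its r with Gas6 was -0.95 within the 6 B10.Q arrays. Within those arrays the r of Gas6 was 0.77 with Ramp3, 0.87 with Fkbp1a, 0.85 with Gmds and -0.79 with Vcan. Pros1 was nearest to Fibp (0.96), Vta1 (0.95) and S100a6 (0.94) and most opposed to Unc5a (-0.98) and Zranb3 (-0.97). Within the 6 B10.Q arrays its r was 0.27 with Fibp, 0.54 with Vta1, 0.57 with S100a6, -0.56 with Unc5a and -0.75 with Zranb3. Tyro3, low in all macrophage arrays, was nearest to Gata4 (0.91), Il9r (0.89) and Tspan18 (0.89, and 0.38 without the 2 farthest arrays), and most opposed to Mettl6 (-0.89) and Zfp930 (-0.89).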

How the data were processed

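Macrophages and CD4 T cells of mice were measured on 16 arrays in 8 groups of 2, grouped by title, with cell type and genotype from the characteristics. The deposited values are linear intensity per probe set, made by the authors with Affymetrix Power Tools and RMA, per the submitters' processing notes; versions and genome build are not given in the sources used here. RMA scales the arrays to one another, so a shift shared by most genes would not show, and each array kept its own column. Log2 was taken of the intensity. The platform annotation gave 1 symbol for 21425 of 24922 probe sets, several for 1399 and none for 2098; a gene with several probe sets was read from the one of highest mean.

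Comparisons were made with the functions lmFit and eBayes of limma 3.58.1 under R 4.3.3, adjusted by Benjamini-Hochberg over all genes, in fits over the 10 macrophage arrays, the 6 T-cell arrays and the 12 B10.Q arrays, checked on simulated data. Genes needed 2 arrays above their own median. Alternatives were other filters (none, or the 70th percentile), quantile and median scaling, trended robust variance, every probe set, a replicate block, other sets of arrays and leaving out each array. KO against B10.Q levels were not tested. Precision is limited by 2 arrays a group.

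The members, pathway lists and marker lists were chosen with earlier results of these data known. All members are named; of each pathway list, up to 4 called genes with the largest difference, or up to 2 where none was called, a selection of which is printed; and for each member the 3 most and 2 least correlated genes. Mx1, Thbs1 and other marker values were added as context. Promoter windows came from RefSeq (GRCm38.p6).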

Additional observations from a re-analysis of the deposited data

Results flagged for a closer look

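Axl was lower in KO arrays titled with IFNα than in those titled without, and higher in B10.Q macrophages at 2 h than after vehicle. The preparation text of the KO arrays titled without IFNα states the injection, so both KO groups may have been treated. Their titles name no vehicle. KO IFNα array 1 had the lowest macrophage (11.93) and the highest B-cell marker mean (7.45) of the macrophage arrays. The next highest B-cell mean (7.225) was in KO array 1 without IFNα, which had the highest Axl (9.62), so B-cell signal lay on both sides of this comparison. KO macrophages had means of 8.50 with IFNα and 9.61 without it, and B10.Q macrophages 9.37 at 2 h of IFNα and 8.97 after vehicle. The difference of the 2 responses was -1.51 (95% interval -2.05 to -0.96), and it was singled out because the test of that difference in limma passed over all genes (adjusted p = 0.0300). Axl had been chosen on its values in KO against B10.Q macrophages, so this is a description and no independent test. The value kept its sign without each array in turn, from -1.76 to -1.25, and its adjusted p was 0.057 to 0.168 without either KO array lacking IFNα, either B10.Q 2 h array or either vehicle array. It was 0.0507 after a median shift and 0.0686 with only the groups compared.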

How the results depend on the processing

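Of 365 values under other settings, 352 counted as unchanged, and of 240 with an array left out, 209 did. For tested differences, unchanged means the same direction and side of the threshold. For the untested KO minus B10.Q differences it means a shift below the pooled spread of the arrays. Leaving out 1 of 2 arrays meets that by construction. A tested difference far from the threshold counts as unchanged unless its sign turns, so the counts say little about sizes. Each member has 1 probe set, so reading every probe set cannot move its difference. Tyro3 in KO without IFNα minus B10.Q vehicle, untested, lay between -0.013 and 0.14 over these changes. With only the groups compared, 1 of the members was called between 5 h and 2 h in B10.Q macrophages (Axl, limma adjusted p = 0.0170, a description), against 0. With all 16 arrays 1 was called in KO macrophages (Axl, limma adjusted p = 0.0170, a description), against 0. Axl was picked on that comparison, and no support is drawn from it. In the difference of 2 h responses, KO minus B10.Q, 1 member was called (Axl, a description). It was 0 after a median shift (limma adjusted p = 0.0507) or with only the groups compared (0.0686). With the filter at the 70th percentile 3 of the members were tested and called between macrophages and T cells, against 5. For macrophages minus T cells at 2 h it was 0 to 1 with an array left out. Gas6 changed sign at 2 h in B10.Q macrophages after quantile normalization (-0.0084) and in macrophages minus T cells after quantile normalization (-0.011) or a median shift (-0.0041). Leaving out an array moved Gas6 from -0.11 to 0.15 at 2 h in B10.Q, from -0.13 to 0.21 in KO, from -0.15 to 0.19 in KO minus B10.Q and from -0.13 to 0.14 in macrophages minus T cells. Mertk moved from -0.14 to 0.23 between 5 h and 2 h, from -0.13 to 0.33 in KO and from -0.11 to 0.29 in macrophages minus T cells. In T cells Tyro3 moved from -0.057 to 0.099 at 5 h and Axl from -0.051 to 0.031 between 5 h and 2 h. The cause of these changes was not tested. Same-numbered arrays shared no consistent deviation over all pairs of groups (correlations from -0.28 to 0.45). Between B10.Q macrophages and T cells of the same treatment the correlation was 0.15 after vehicle, 0.16 at 2 h and -0.14 at 5 h. In the vehicle pairs the number also goes with the time of 2 h or 5 h. Whether same-numbered arrays share mice cannot be told from these values. The replicate block left the count of members called as it was in every comparison (Axl in KO minus B10.Q, adjusted p = 0.0333). Same-numbered KO arrays deviated in opposite directions, and the crossed pairing, chosen after seeing the data, called 0 members in KO macrophages, as without it. With 2 arrays a group, the width of the 95% intervals limits what can be seen, and it varied by gene and comparison. At 2 h in B10.Q macrophages it ran from -0.03 to 0.76 for Mertk and from -0.33 to 0.13 for Pros1. In the difference of 2 h responses, KO minus B10.Q, it ran from -0.82 to 0.30 for Mertk. Tyro3 in macrophages and Mertk and Pros1 in T cells lie near or under the array median.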
